A study of Mus musculus with 8 samples.

Results

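Most of the genes described here encode proteins of the cytosolic ribosome, and all were chosen by name. The choice takes every gene symbol of the form Rpl or Rps followed by a number and at most a short suffix. It also takes the stalk genes Rplp0, Rplp1 and Rplp2, and Rpsa, and leaves out processed copies (symbols with -ps) and the S6 kinases. The rule found 88 of the 45706 genes in the table, 51 of the large (60S) and 37 of the small (40S) subunit. In the GENCODE M21 annotation 83 of them are protein coding, and 5 (Rps3a2, Rps3a3, Rps4l, Rps12l1 and Rps12l2) are annotated as pseudogenes although their symbols pass the rule. After a filter on low counts 85 were tested. The 3 that were not are Rpl3l, Rpl10l and Rpl39l, which in mammals are known as variants of Rpl3, Rpl10 and Rpl39 used mainly in striated muscle (Rpl3l) or testis (Rpl10l and Rpl39l).

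Muscle stem cells were sorted by flow cytometry from hindlimb muscles of wild-type C57BL/6 female mice aged 8 to 12 weeks, as cells with α7-integrin and CD34 on their surface and without CD45, Sca1, CD31 and CD11b. The cultured group (3 libraries) had spent 48 h on a hydrogel of 12 kPa, and the labels give a medium with 20% serum for all samples, while the fresh group (5 libraries) was taken straight after the sort. Fresh replicates 4 and 5 shared a sequencing run with the cultured libraries (run 2), and fresh replicates 1 to 3 were sequenced in an earlier run (run 1). The labels do not say whether replicates came from separate mice or cultures, so the spread behind each p-value is that among these libraries and may be technical.

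Total counts lay between 16654628 and 20068199 in the cultured and between 13919508 and 20055228 in the fresh libraries. The 2 runs stood apart: cultured libraries held counts for 15474 to 17941 genes, run-2 fresh libraries for 20560 and 20955, and run-1 fresh libraries for 32921 to 34876. The labelled cell type was checked with markers. All 8 stem cell markers were tested, with a summed level of 1051 to 1178 CPM (counts of a gene scaled to a common library size with TMM factors) in cultured and 5232 to 5700 CPM in fresh libraries. Markers of pericytes and smooth muscle (8 of 8 tested) summed to 33.7 to 51.6 CPM in cultured and 806 to 3187 CPM in fresh libraries, with Kcnj8 and Abcc9 at 0 in cultured ones. Those of fibro-adipogenic cells (6 of 6) summed to 7.59 to 19.0 CPM in cultured and 877 to 1202 CPM in fresh libraries, with Ly6a at 0 in cultured ones. Schwann cell markers (4 of 4) summed to 0.0527 to 3.47 CPM in cultured and 49.6 to 796 CPM in fresh libraries, with Sox10 at 0 in cultured ones. The part of these other cell types in the differences below was not tested, and in bulk libraries fewer cells of a type and less RNA per cell cannot be told apart.

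A ribosome holds 1 copy of nearly every protein, apart from the stalk, and cells usually keep the mRNAs of these proteins in step with each other. Most of the mRNAs start with a run of pyrimidines, the terminal oligopyrimidine (TOP) motif, through which mTORC1 and the RNA-binding protein Larp1 set how actively they are translated, so that ribosome supply can change with little change in mRNA level. Muscle stem cells at rest make little protein, and protein synthesis rises when they activate. Ribosomal protein genes have also left many retrotransposed copies in mammalian genomes, whose sequences can be the same as that of the parent mRNA.

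The Rps27 family shows such copies. Rps27 (chr3:90212522-90213651, minus strand) encodes a zinc-finger protein of the 40S subunit. The intronless gene Rps27rt (chr9:114982366-114982739, minus strand) has a coding sequence identical to it over all 252 bases. Rps27l (chr9:66946086-66949516, plus strand) is a separate paralog, known from human cells as a gene induced by p53, and has the same base as Rps27 at 173 of 226 aligned coding bases (76.5%). The first 90 coding bases of Rps27 and the stretches aligned to them, from the GENCODE M21 transcripts on GRCm38, are shown because they set a copy whose coding reads cannot be told apart from those of Rps27 beside one whose coding reads can; capitals mark the 24 bases at which Rps27l differs from Rps27.
Rps27: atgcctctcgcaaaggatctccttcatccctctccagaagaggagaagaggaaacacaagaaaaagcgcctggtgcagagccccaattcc
Rps27rt: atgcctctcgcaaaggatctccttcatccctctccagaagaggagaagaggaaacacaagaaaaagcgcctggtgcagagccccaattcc
Rps27l: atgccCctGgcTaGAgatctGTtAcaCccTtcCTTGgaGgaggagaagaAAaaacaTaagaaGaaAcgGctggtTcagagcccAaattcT

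Copies of this kind were looked for by sequence: rows annotated as pseudogenes, named as processed copies or called Rps27rt or Rpl37rt, whose transcript matched a member's coding sequence with at least 90% identity over at least 50% of its length. Of the 83 coding members, 76 had at least 1 such copy and 7 had none, among them Rpl8, Rpl41, Rps3 and Rps9. There were 713 copies in all, 701 of them with counts, with a median of 5 per coding member and 55 for Rpl21. For 20 members the copy with the most counts matched the coding sequence without a difference. In 44 of the 76 families the member's own row held under 50% of the family's counts in the cultured libraries.

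**Figure D1:**
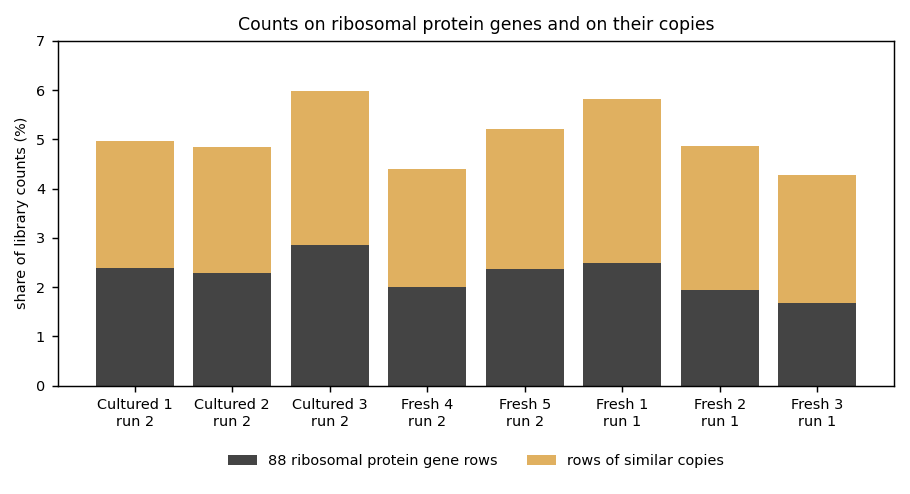
Share of each library's counts, in percent, on the 88 ribosomal protein genes (dark) and on their similar copies (light), stacked, with cultured libraries on the left, then fresh libraries of run 2 and run 1. The genes' own rows hold 1.67 to 2.85% in every library, and their copies hold 2.41 to 3.34%.

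The share of all counts on the 88 genes was of the same order in both groups. Their own rows took 2.38, 2.29 and 2.85% of counts in cultured replicates 1 to 3, against 2.48, 1.94, 1.67, 2.00 and 2.37% in fresh replicates 1 to 5, so the groups overlapped. The means were 2.51% ± 0.302 in cultured and 2.09% ± 0.329 in fresh libraries (SD, n = 3 and 5). The copies held as much as the genes or more, with 2.76% ± 0.316 in cultured and 2.82% ± 0.352 in fresh libraries. Genes and copies together took 5.26% ± 0.618 of cultured and 4.91% ± 0.628 of fresh counts. Mitochondrial transcripts took 12.8 to 21.02% of counts in cultured libraries, 25.4 and 29.3% in run-2 fresh libraries and 5.98 to 11.8% in run-1 fresh libraries. Without them the share on the 88 genes was 2.98% ± 0.315 in cultured, 2.83 and 3.17% in run-2 fresh and 1.90 to 2.64% in run-1 fresh libraries.

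Between cultured and fresh libraries of the same run 6 ribosomal protein genes were called, and the number changed with the fresh libraries and the processing used (from 2 to 33 higher and from 0 to 30 lower). The comparison, by edgeR's quasi-likelihood test with culture and sequencing run as terms and Benjamini-Hochberg adjustment over 19054 genes, sets the cultured libraries against the run-2 fresh libraries, because no cultured library was in run 1. Of the 85 tested members 3 were higher in culture (Rps27l, Rpl7l1 and Rps2) and 3 were lower (Rps4x, Rpl17 and Rps21). Over all genes 8.87% were called higher and 18% lower. The members' median log2 fold change was -0.19 and that of all genes was -0.21. The quartiles of the members were -0.42 and 0.08, against -2.19 and 0.97 over all genes. Of the 77 members with a mean of at least 50 CPM, 75.3% had a log2 fold change between -0.5 and 0.5, against 27.4% of the 3350 other genes at that level. These shares are of this fit and depend on the fresh libraries and the processing. Against run-1 fresh libraries alone the members' median was 0.60 (all genes -0.43). With GC and length trends removed it was -0.67 (all genes -0.21). The run-1 fresh libraries took part in the spread behind the calls. In a fit of the run-2 libraries alone 84 members were tested, with the same 3 higher and 2 lower (Rps4x and Rpl17). Of all 16241 genes tested there, 1013 were higher and 1767 lower.

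**Figure D2:**
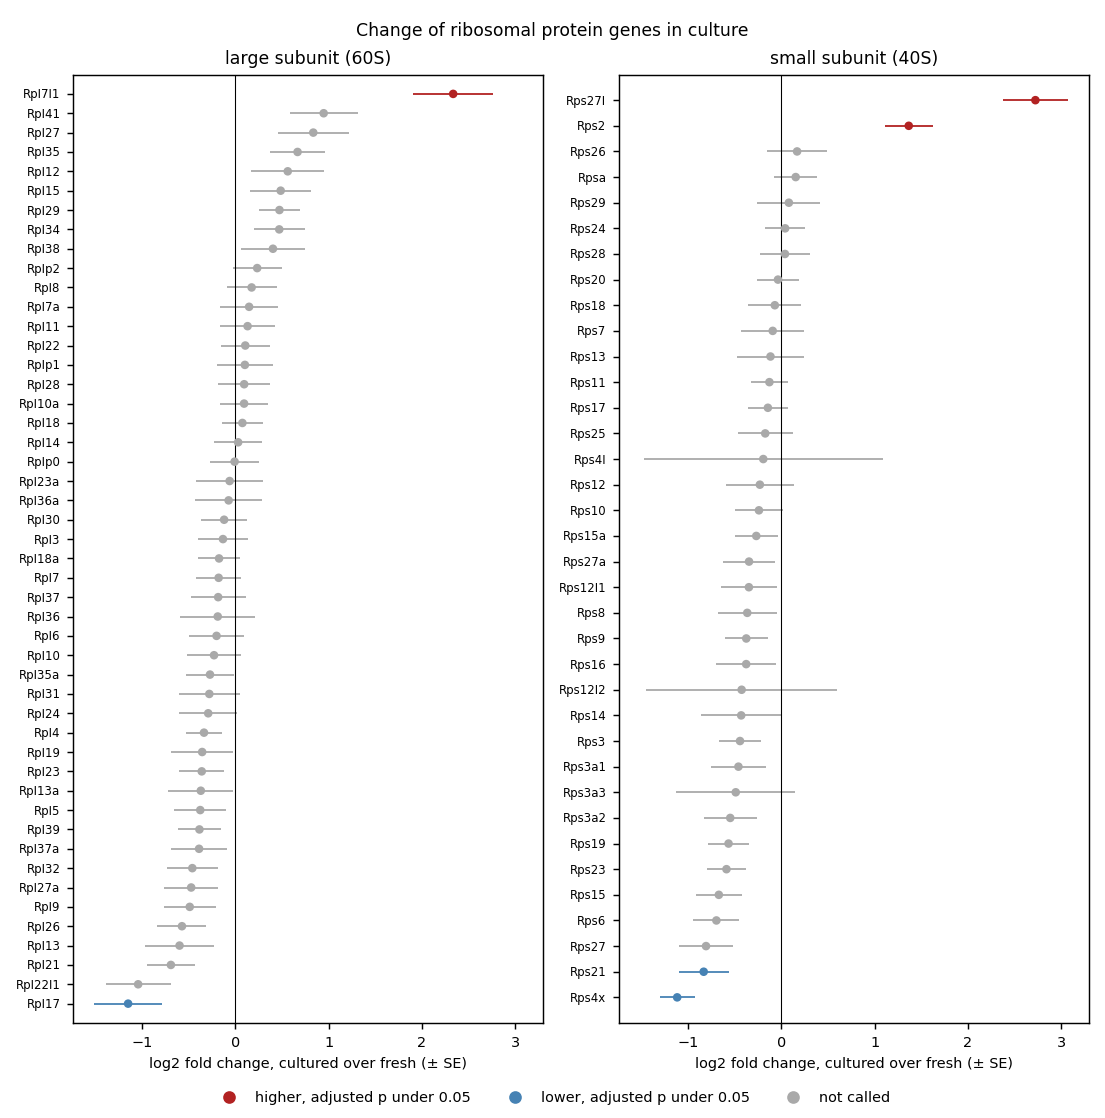
Log2 fold change, cultured over fresh, with its standard error, for the 48 tested large-subunit genes and 36 of the 37 tested small-subunit genes in order of size, coloured by the edgeR call at an adjusted p of 0.05. Rps27l (2.72), Rpl7l1 (2.33) and Rps2 (1.37) stand to the right of the rest, and Rpl17 (-1.15) and Rps4x (-1.11) lie at the lower end.

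Both subunits had 1 or 2 calls each way. The large subunit had a median log2 fold change of -0.15 over 48 tested members, with 1 higher and 1 lower, and the small subunit -0.34 over 37, with 2 higher and 2 lower. Of the 79 members without a call, 43 had a 95% interval wholly between -1 and 1 on the log2 scale, and for the other 36 the interval reached -1 or 1 or went beyond. In 8 members all cultured libraries lay above all fresh ones, and in 3 all lay below (13.7% and 26.1% of all genes). Besides Rps27l, Rpl7l1 and Rps2, those above were Rpl12, Rpl29, Rpl34, Rpl35 and Rpl41. This holds for own rows. Summed with its similar copies, Rpl12 had 994, 714 and 1047 CPM in cultured and 523 to 932 CPM in fresh libraries, which overlapped. Its log2 fold change was 0.56 on its own row and 0.03 in the sum. In such sums Rpl29, Rpl34 and Rpl35 had 0.54, 0.55 and 0.69. Besides Rps4x, those below were Rpl4 and Rps3a2, while the called Rpl17 and Rps21 overlapped.

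Rps27l had the largest difference. It stood at 231, 127 and 206 CPM in cultured replicates 1 to 3, against 13.0, 12.2, 9.53, 27.9 and 29.2 CPM in fresh replicates 1 to 5. Every cultured library was above every fresh one. The log2 fold change was 2.72 ± 0.35 (SE, adjusted p = 0.0012), and it kept its call without each library in turn (2.61 to 2.95). Its parent Rps27 had 65.2, 69.2 and 83.0 CPM in cultured libraries, against 106 and 147 CPM in fresh libraries of run 2 and 7.68 to 11.1 CPM in those of run 1. The cultured libraries lay between the fresh libraries of the 2 runs, and the log2 fold change of -0.80 ± 0.29 had an adjusted p of 0.073.

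Rpl7l1 is counted here by its name, as a paralog of the large-subunit gene Rpl7. Whether its protein is part of the finished ribosome was not tested. Rpl7l1 had 100, 106 and 51.5 CPM in cultured libraries, against 22.7, 29.0, 20.9, 14.7 and 19.4 CPM in fresh ones. The cultured libraries were all higher, with replicate 3 nearest to the fresh range. The log2 fold change was 2.33 ± 0.43 (adjusted p = 0.0055), while Rpl7 itself had 604, 380 and 420 CPM in cultured and 378 to 535 CPM in fresh libraries, with a log2 fold change of -0.18 ± 0.24 (adjusted p = 0.64).

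Rps2, a small-subunit protein beside the mRNA entry channel, was the called gene higher in culture that is not named as a paralog of another ribosomal protein gene. It had 304, 248 and 287 CPM in cultured libraries, against 78.6, 67.4, 54.2, 100 and 117 CPM in fresh ones, with no overlap. The log2 fold change was 1.37 ± 0.25 (adjusted p = 0.0056). A test against a log2 fold change of 1 rather than 0 kept Rps27l and Rpl7l1 and left Rps2 and Rps4x without a call (adjusted p = 0.10 and 0.29).

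Rps4x, the X-linked gene of the small-subunit protein S4, was lower in culture. It had 846, 709 and 774 CPM in cultured libraries, against 1949, 1700, 1674, 1683 and 1676 CPM in fresh ones. All fresh libraries stood above all cultured ones, and 4 of the 5 lay close together. The log2 fold change was -1.11 ± 0.19 (adjusted p = 0.0041), with -1.12 to -1.04 without each library in turn, and against the run-1 fresh libraries alone it was -1.13 (adjusted p = 0.0039). Rps4l, a related row annotated as a pseudogene, had 1.37, 2.78 and 0.102 CPM in cultured and 0.30 to 2.67 CPM in fresh libraries.

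On their own rows the other 2 lower calls depended on which fresh libraries were used. Rpl17, a protein near the ribosomal exit tunnel, had 70.3, 57.7 and 84.1 CPM in cultured libraries, against 144 and 169 CPM in run-2 fresh and 36.0, 17.9 and 18.4 CPM in run-1 fresh libraries. The cultured values thus lay between those of the 2 runs. The log2 fold change was -1.15 ± 0.36 (adjusted p = 0.045). Against run-1 fresh libraries alone it was 1.62 (adjusted p = 0.012), in the other direction. The call was lost without each library in turn except fresh replicate 1, with an adjusted p of up to 0.22. Its own row held 14.9% of the counts of Rpl17 and its similar copies in cultured and 3.52% in run-1 fresh libraries. Summed with these copies, Rpl17 had 490, 388 and 576 CPM in cultured and 591 to 1168 CPM in fresh libraries. In this sum all cultured libraries lay below all fresh ones of both runs. Rps21 had 108, 101 and 143 CPM in cultured, 165 and 250.7 CPM in run-2 fresh and 76.5 to 86.0 CPM in run-1 fresh libraries. Its log2 fold change of -0.83 ± 0.27 (adjusted p = 0.0498) lost its call without each library in turn except cultured replicate 3 (adjusted p up to 0.37), and without fresh replicate 5 it was -0.48.

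**Figure D3:**
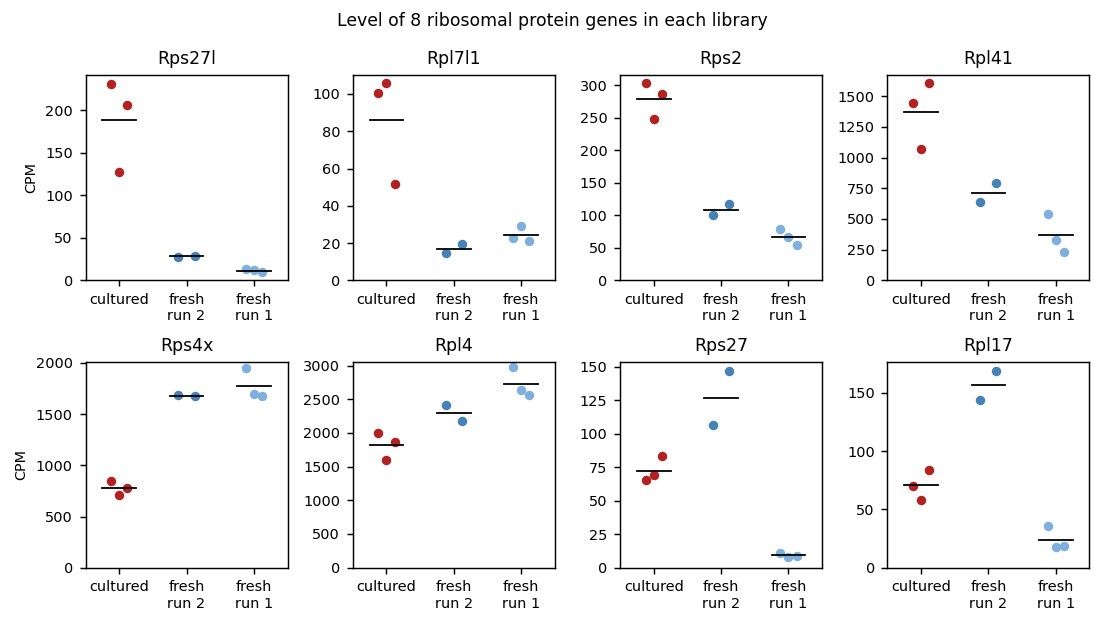
CPM in each library (points) with the group mean (line) for 8 genes, on linear axes from 0, with cultured libraries left of fresh libraries of run 2 and run 1. Rps27l, Rpl7l1, Rps2 and Rpl41 are above all fresh libraries, Rps4x and Rpl4 are below them, and Rps27 and Rpl17 lie between the fresh libraries of the 2 runs.

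Beside Rps4x, the genes with the highest mean CPM, which is not divided by length, included Rpl4, Rps3 and Rpl41, which were not called. Rpl4, of the large subunit, had 1996, 1599 and 1866 CPM in cultured and 2174 to 2986 CPM in fresh libraries and a log2 fold change of -0.33 ± 0.20 (adjusted p = 0.25). Rps3, a small-subunit protein at the mRNA entry that also acts in DNA repair, had 749, 594 and 797 CPM in cultured and 767 to 1046 CPM in fresh libraries (log2 fold change -0.44 ± 0.23, adjusted p = 0.18). Rpl41, which encodes the smallest ribosomal protein, had 1446, 1066 and 1607 CPM in cultured and 233 to 790 CPM in fresh libraries. Its groups did not overlap, but the log2 fold change of 0.95 ± 0.36 missed the threshold (adjusted p = 0.085) and passed it without fresh replicate 1 (adjusted p = 0.041). Rps3 and Rpl41 had no similar copy, so these values rest on their own rows.

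The stalk genes, whose proteins recruit elongation factors to the 60S subunit, had no call against run-2 fresh libraries. Rplp0 had 1074, 686 and 740 CPM in cultured and 324 to 887 CPM in fresh libraries, with a log2 fold change of -0.01 and a 95% interval from -0.61 to 0.60. Rplp1 and Rplp2 had log2 fold changes of 0.10 and 0.24, with intervals from -0.57 to 0.77 and from -0.36 to 0.83. Against run-1 fresh libraries alone Rplp0 (1.15, adjusted p = 0.0077), Rplp1 (1.24, adjusted p = 0.0090) and Rplp2 (0.98, adjusted p = 0.010) were all called higher.

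Genes with known roles outside the assembled ribosome had no call either in this comparison. Rpl5 and Rpl11, which with 5S ribosomal RNA can bind the p53 regulator Mdm2, had log2 fold changes of -0.37 ± 0.28 and 0.13 ± 0.29. Their cultured libraries had 201 to 234 and 113 to 136 CPM, against fresh ranges of 57.2 to 301 and 51.6 to 128 CPM. Mdm2 itself, in the list of partners described below, had 889 ± 217 CPM in cultured and 102 ± 5.27 CPM in fresh libraries (SD, n = 3 and 5; log2 fold change 3.07, adjusted p = 0.00025). Rps6, the substrate of the S6 kinases, had 246, 221 and 262 CPM in cultured and 170 to 417 CPM in fresh libraries (-0.69 ± 0.25, adjusted p = 0.067). Rpsa, also known as the laminin receptor, had a log2 fold change of 0.16 ± 0.23, and Rps27a, made as a fusion with ubiquitin, of -0.34 ± 0.28. Against run-1 fresh libraries alone Rpl5 (1.41, adjusted p = 0.0056), Rpl11 (0.95, adjusted p = 0.026), Rpsa (0.98, adjusted p = 0.0069) and Rps27a (1.09, adjusted p = 0.016) were called higher, and Rps6 (0.28, adjusted p = 0.39) was not. These values are of the genes' own rows. With similar copies added, Rpsa and Rps27a were still called higher against run-1 fresh libraries alone, but Rpl5 and Rpl11 were not called.

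Of the paralog pairs, Rpl22 and Rpl22l1 are of interest because in mice the Rpl22 protein represses Rpl22l1. Rpl22 had 398, 305 and 392 CPM in cultured and 231 to 393 CPM in fresh libraries (log2 fold change 0.11 ± 0.26). Rpl22l1 had 79.9, 44.4 and 46.9 CPM in cultured, 128 and 107 CPM in run-2 fresh and 23.6 to 35.9 CPM in run-1 fresh libraries. Its log2 fold change was -1.04 ± 0.35 (adjusted p = 0.055), and against run-1 fresh libraries alone it was 1.02 (adjusted p = 0.053). Rpl3, Rpl10, Rpl36a and Rpl39 had log2 fold changes of -0.13, -0.23, -0.07 and -0.38, none of them called. Rpl10l had no count in any library, Rpl3l was at 0 to 0.0527 CPM in cultured and 0 to 0.741 CPM in fresh libraries, and Rpl39l was at 0 in cultured and at most 0.24 CPM in fresh libraries. Within such pairs Rpl22 and Rpl22l1 are identical at 75.5% of aligned coding bases, Rpl3 and Rpl3l at 74.4%, Rpl39 and Rpl39l at 85.5% and Rpl10 and Rpl10l at 84.7%. Rpl7 and Rpl7l1 aligned over only 102 of the 810 coding bases of Rpl7, with 70.6% identity there.

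When the counts of the similar copies were added to each member before the same test, 81 families were tested, with 3 higher and 6 lower, against 9.12% and 17.9% of all genes. The members higher in this sum were again Rps27l (2.79), Rpl7l1 (2.15) and Rps2 (1.38). Rps4x (-1.10) and Rpl17 (-1.16) were lower in both, and Rps27, Rps6, Rps23 and Rpl21 were called lower with copies added but not on their own rows, so 5 members were called in both forms. The Rps27 family had 706, 716 and 866 CPM in cultured libraries, against 1253, 989, 980, 1152 and 1392 CPM in fresh ones. In the sum all cultured libraries of Rps27 lay below all fresh ones, and the fresh libraries of the 2 runs overlapped (log2 fold change -0.74 ± 0.22, adjusted p = 0.034). The Rps6 family had 1288, 1125 and 1455 CPM in cultured and 1545 to 2025 CPM in fresh libraries (-0.64 ± 0.21, adjusted p = 0.049). The Rpl21 family had 282, 248 and 222 CPM in cultured, 390 and 428 CPM in run-2 fresh and 176 to 225 CPM in run-1 fresh libraries. Its cultured values thus lay below those of run-2 fresh libraries and overlapped those of run 1. Of the 6 families called lower, only Rps4x was also called lower against run-1 fresh libraries alone. The number of lower calls in these sums was between 1 and 8 without each library in turn, with 1 without fresh replicate 5 and 2 without fresh replicate 4 or cultured replicate 2, and the Rpl7l1 call was lost without fresh replicate 4.

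The fresh libraries of the 2 runs also differed within the family. The labels do not say whether reads of both runs were processed alike before deposit, so differences in cells, library preparation and read processing between the runs cannot be told apart. In the same edgeR model 8 members were higher in run-2 than in run-1 fresh libraries and 0 were lower (2 at an unadjusted p under 0.05 and 1 by DESeq2), while 0.0945% of all genes were called in each direction. These were Rpl17, Rpl29, Rpl39, Rps3a3, Rps12, Rps20, Rps23 and Rps27, so they made up 8 of the 18 genes called higher in the whole table. When single fresh libraries were dropped, 5 were higher on dropping replicate 1 or 3, 3 on dropping replicate 2, 2 on dropping replicate 4 and 0 on dropping replicate 5 (33 at an unadjusted p under 0.05). In 58 of the 85 members both run-2 libraries lay above all 3 run-1 libraries, and in 5 they lay below (18.5% and 29.5% of all genes). The members' median log2 difference was 0.73, and that of all genes was -0.14.

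**Figure D4:**
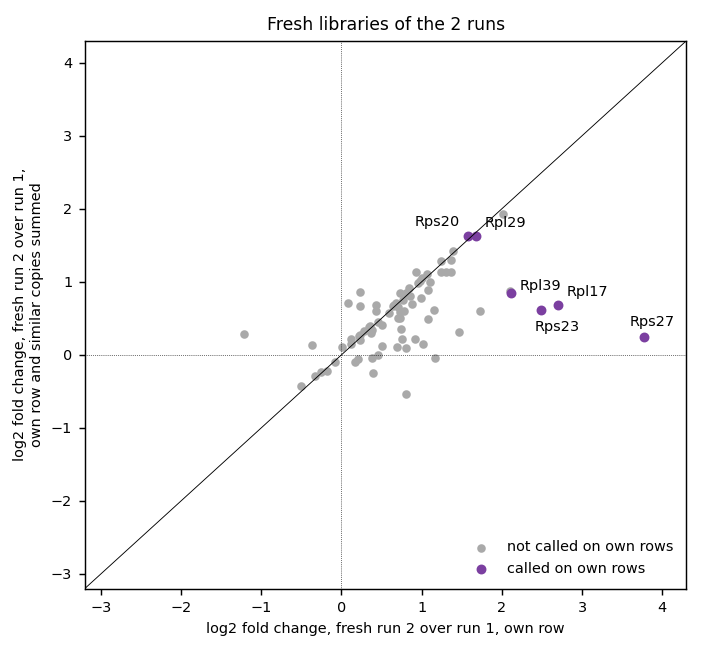
Log2 fold change of run-2 over run-1 fresh libraries for each member's own row (horizontal) and for its row summed with similar copies (vertical); the line marks equal values, and Rps12 and the rows merged into another family are left out. Rps27 stands at 3.77 on its own row and at 0.24 in the sum, Rpl17, Rps23 and Rpl39 also come to lie well below the line, and Rps20 and Rpl29 stay on it.

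In Rps27, Rps23, Rpl17 and Rpl39 the counts were divided differently between the gene and its copies in the 2 runs. Rps27 had 106 and 147 CPM in run-2 and 11.1, 7.68 and 9.06 CPM in run-1 fresh libraries, 3.77 higher on the log2 scale (adjusted p = 0.0028). Its own row held 9.97% of the family's counts in run-2 and 0.849% in run-1 fresh libraries, and 9.73% in cultured ones. The rest was almost all on the identical Rps27rt, which had 16390 and 19093 counts in run-2 and 21763, 15254 and 16709 counts in run-1 fresh libraries. Summed, the log2 difference between runs was 0.24. Rps23 (260 and 280 CPM in run-2, 42.2 to 51.0 CPM in run-1 fresh libraries) had 17.3% of its family's counts in run 2 and 4.62% in run 1, with most of the others on Rps23-ps1, identical to it over 99.1% of the coding sequence. The share was 14.5% in run-2 and 3.52% in run-1 fresh libraries for Rpl17, and 43.3% in run-2 and 17.5% in run-1 fresh libraries for Rpl39.

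Rps12 had 65.0 and 75.7 CPM in run-2 fresh libraries and 0 counts in all 3 run-1 libraries, with 73.9, 47.1 and 59.2 CPM in cultured ones. Against 3 counts over the run-1 libraries, the own row was at least 1154-fold higher in run-2 fresh libraries. This bound covers counting error only, and not how reads were shared out between Rps12 and its copies. Its copies held counts in run 1, with 1071, 632 and 726 on the best-counted one, Rps12-ps3. Summed with its copies, Rps12 had a mean of 502 CPM in run-2 and 158 CPM in run-1 fresh libraries, a log2 difference of 1.67 (adjusted p = 0.063). Rps3a3 behaved alike, with 112 and 111 CPM in run-2 and 0.24 to 2.45 CPM in run-1 fresh libraries, while Rps3a1, into whose family it falls, had 766 and 772 CPM in run-2 and 569 to 848 CPM in run-1 fresh libraries.

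Rps20 and Rpl29 differed from these, since their own rows held nearly all of the family's counts in both runs (99.5% in run 2 and 99.7% in run 1 for Rps20, and 90.9% in run 2 and 86.2% in run 1 for Rpl29). Rps20 had 257 and 275 CPM in run-2 and 74.5 to 102 CPM in run-1 fresh libraries, a log2 difference of 1.58 (adjusted p = 0.042), and Rpl29 had 306 and 385 CPM in run-2 and 91.9 to 122 CPM in run-1 fresh libraries, a difference of 1.67 (adjusted p = 0.025). With copies added the differences were 1.62 and 1.63, each with an adjusted p of 0.052. With copies added 0 members were called between runs by edgeR (35 higher and 1 lower at an unadjusted p under 0.05), against 0.0107% of all genes higher and 0.0746% lower, and 4 were called higher without cultured replicate 1. The members' median difference was 0.59.

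The number of calls in culture changed with the fresh libraries used. Against the run-1 fresh libraries alone, 33 members were higher and 3 lower (13.3% and 25.4% of all genes), with a median log2 fold change of 0.60, against -0.43 over all genes. With copies added it was 23 higher and 2 lower, with a median of 0.38. Without scaling factors the members' median was 0.21 and that of all genes 0.03, so that the median of all genes moved by more than 0.1, and 8 members were higher and 1 was lower (12.9% and 15% of all genes). After removal of GC and length trends per library, 3 were higher and 30 lower (9.29% and 18.2% of all genes), with a median of -0.67. The tested members' transcripts were short, with a median of 751 bases against 2558 bases over all tested genes. Rps27l, Rpl7l1 and Rps2 were higher and Rps4x was lower with a call under each of these 4 settings.

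**Figure D5:**
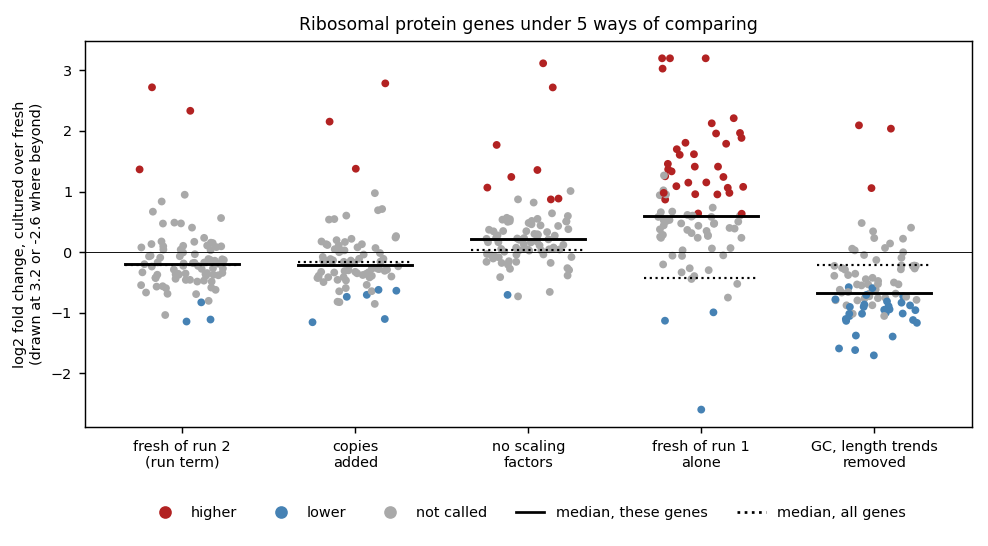
Log2 fold change of each tested member (points), cultured over fresh, under 5 ways of comparing, coloured by the edgeR call, with the median of these genes (solid line) and of all genes (dotted line). The median is -0.19 against run-2 fresh libraries and 0.60 against those of run 1, and -0.67 once GC and length trends are removed; 4 points beyond the axis are drawn at its ends.

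The sequence around the transcription start was examined in the RefSeq windows on GRCm38.p6, from 250 bases before the annotated start to 50 bases after it, which matched 63 of the 88 members with 75 starts. A run of at least 8 pyrimidines on the coding strand lay within 25 bases of the start in 45.3% of the member windows and in 19.7% of all 32851 windows. The motif CCGGAAG, read on both strands over the 300 bases, was in 36% of member and 8.86% of all windows. TCTCGCGA was in 16% of member and 0.995% of all windows, AAGATGGC in 10.7% and 2.75%, GGGCGG in 60% and 35.7%, and TATAAA in 9.33% and 13.6%. The windows below run from 60 bases before to 19 bases after the annotated start base and belong to the 4 genes whose calls held in the comparisons above, with both annotated starts of Rps27l, and to 4 genes without a call, Rpl4, Rps3, Rpl41 and Rpl22l1. Capitals mark CCGGAAG or its reverse complement and pyrimidine runs of at least 8.
Rps27l, chr9:66946026-66946105, plus strand: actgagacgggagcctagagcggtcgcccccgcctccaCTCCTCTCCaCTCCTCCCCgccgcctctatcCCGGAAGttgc
Rps27l, second start, chr9:66946353-66946432, plus strand: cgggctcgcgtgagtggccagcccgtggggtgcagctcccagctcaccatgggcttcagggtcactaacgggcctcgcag
Rpl7l1, chr17:46782637-46782716, minus strand: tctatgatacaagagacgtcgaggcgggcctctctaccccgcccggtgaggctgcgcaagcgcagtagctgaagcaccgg
Rps2, chr17:24720003-24720082, plus strand: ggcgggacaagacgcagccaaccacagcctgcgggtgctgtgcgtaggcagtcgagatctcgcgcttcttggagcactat
Rps4x, chrX:102189372-102189451, minus strand: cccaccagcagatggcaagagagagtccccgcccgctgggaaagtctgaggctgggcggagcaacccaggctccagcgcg
Rpl4, chr9:64173327-64173406, plus strand: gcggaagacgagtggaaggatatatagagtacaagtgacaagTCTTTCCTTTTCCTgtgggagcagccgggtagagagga
Rps3, chr7:99483690-99483769, minus strand: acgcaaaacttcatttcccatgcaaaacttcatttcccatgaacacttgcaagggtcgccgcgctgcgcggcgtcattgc
Rpl41, chr10:128549149-128549228, minus strand: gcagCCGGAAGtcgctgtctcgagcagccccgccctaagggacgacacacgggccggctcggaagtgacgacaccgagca
Rpl22l1, chr3:28805448-28805527, plus strand: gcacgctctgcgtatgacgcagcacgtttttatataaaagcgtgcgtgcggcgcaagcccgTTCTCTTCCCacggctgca
Rpl4 carries 1 such run and the first start of Rps27l carries 2, all upstream of the start, and in Rpl22l1 a run begins at the base after the start. CCGGAAG lies in the windows of the first Rps27l start and of Rpl41. The windows of the second Rps27l start, Rpl7l1, Rps2, Rps4x and Rps3 hold neither, so windows with and without these letters occur among genes with and without a call. A match is a description of these letters, and annotated starts can be some bases off.

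Other genes of ribosome production were counted in the same fit. Of 6 tested ribosomal or ribosome-like proteins whose names the rule does not take, 3 were higher in culture and 0 were lower, with 0 lower at an unadjusted p under 0.05 or by DESeq2 (8.87% of all genes were called higher and 18% lower). Rpl36al, a paralog of Rpl36a identical to it at 87.7% of coding bases, had 392.2 ± 52.0 CPM in cultured and 149 ± 20.9 CPM in fresh libraries (SD, n = 3 and 5; log2 fold change 1.30 ± 0.24, adjusted p = 0.0058). Rsl24d1 and Rsl1d1, which act in ribosome assembly rather than in the finished ribosome, had log2 fold changes of 2.07 ± 0.44 and 2.23 ± 0.25. Fau, made as a fusion with a ubiquitin-like protein, and Gnb2l1, the older symbol of the 40S scaffold Rack1, were not called (log2 fold changes -0.11 and -0.16).

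Of 19 other genes whose mRNAs carry a TOP start, 8 were higher and 2 lower (8.87% and 18% of all genes), with a median log2 fold change of 0.08, against -0.21 over all genes. The nucleolar chaperone Npm1 had 3457 ± 363 CPM in cultured and 436 ± 158 CPM in fresh libraries (log2 fold change 2.54 ± 0.27, adjusted p = 0.00053). Nap1l1, a histone chaperone, and Pabpc1, the poly(A)-binding protein, had log2 fold changes of 1.78 ± 0.31 and 1.74 ± 0.23. Of 15 genes that control TOP mRNA translation, 5 were higher and 1 was lower (8.87% and 18% of all genes). The kinase gene Akt1 was higher (log2 fold change 2.10). The eIF4E-binding protein gene Eif4ebp2 had 49.8, 318 and 102 CPM in cultured and 29.0 to 70.1 CPM in fresh libraries, so cultured replicate 1 lay within the fresh range. It was called higher (2.34, adjusted p = 0.036) but not against run-1 fresh libraries alone (1.47, adjusted p = 0.11). In the same list the mTOR inhibitor gene Deptor had 48.1 ± 20.3 CPM in cultured and 497 ± 53.1 CPM in fresh libraries (-3.36 ± 0.36, adjusted p = 0.00053). Of 8 tested host genes of small nucleolar RNAs 2 were higher, Nop56 (2.79) and Snhg6 (1.99), against 8.87% of all genes, and 0 were lower, against 18%, also at an unadjusted p under 0.05 and by DESeq2. Snhg6 passed narrowly (edgeR adjusted p = 0.047), with 152, 36.9 and 100 CPM in cultured and 7.88 to 33.4 CPM in fresh libraries.

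Carriers, assembly factors and other partners of ribosomal proteins had the highest share of calls among these lists. Of 22 tested, 14 were higher and 0 lower (1 at an unadjusted p under 0.05 and 1 by DESeq2), against 8.87% and 18% of all genes. Their median log2 fold change was 1.61. Those higher include Mdm2, which is listed because Rpl5 and Rpl11 can bind it and not as a carrier or assembly factor. They also include Nmd3, the export adaptor of the 60S subunit, which had 305 ± 74.5 CPM in cultured and 35.3 ± 16.2 CPM in fresh libraries (SD, n = 3 and 5; log2 fold change 2.72 ± 0.52, adjusted p = 0.0064). Grwd1, the chaperone of Rpl3, had 16.5, 31.9 and 38.7 CPM in cultured, 4.11 and 2.09 CPM in run-2 fresh and 9.30 to 15.8 CPM in run-1 fresh libraries. Its log2 fold change was 3.23 ± 0.67 (adjusted p = 0.0085), and against run-1 fresh libraries alone it was 1.26, without a call (adjusted p = 0.088).

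Over the 8 libraries the median member, as log2 CPM centred on its mean, stood at 0.30, 0.01 and 0.25 in cultured replicates 1 to 3, at 0.23 and 0.41 in run-2 fresh and at -0.11, -0.45 and -0.64 in run-1 fresh libraries. The cultured values thus overlapped those of run-2 fresh libraries, and all run-1 fresh libraries were lower. Among 7900 other coding genes with a mean of at least 10 CPM, those whose centred profile was nearest to it, by the root mean square difference over these 8 libraries, included N6amt1 (0.15), Tshz1 (0.16), Mrpl33 (0.17) and Nsa2 (0.18).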

How the data were processed

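The authors deposited a table of expected counts per gene for 8 libraries. STAR, RSEM and mm10 stand in the submitters' processing notes, without versions. RNA was amplified as cDNA with NuGEN Ovation, per the labels' protocols, with no molecular identifier mentioned. Of values above 0, 50.1% were not whole, and all were rounded. The 92 ERCC lines were left out of 45798. Reads matching several genes are shared out by RSEM, which leaves genes with near-identical copies uncertain. Genes were kept by edgeR's filterByExpr. The main test was edgeR 4.0.16 quasi-likelihood (R 4.3.3) with run and culture as terms, TMM factors and Benjamini-Hochberg adjustment at 0.05. Standard errors were derived from the test statistic, and 95% intervals use them. Copies were found with BLAST 2.17.0 on GENCODE M21. Steps were tested on simulated data. CPM is not divided by length, so levels are not compared between genes. A gene at 0 in a group is set against 3 counts, which covers counting error only.

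The genes named are the 5 called members with the largest change each way and a mean of at least 10 CPM, the 5 with the highest mean, 8 paralog sets, 9 with special roles, all called between runs, and up to 3 called genes per list. The 5 genes completing the counts of libraries that do not overlap, and the members called with copies added, were named after their values were seen. Some genes that these rules name are not reported here. The members and lists were chosen with earlier results of these data known. Alternatives were other scalings and filters, DESeq2 1.42.0, other sets of libraries, copies added, GC and length trends removed, and each library left out.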

Additional observations from a re-analysis of the deposited data

Results flagged for a closer look

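In 3 genes 1 fresh library lay far from the other 4, by Dixon's criterion for 5 values, which chance meets in about 1 of 20 groups; 33 groups were examined. Rps4x had at most 846 CPM in cultured libraries, 1949 CPM in fresh replicate 1 and 1674 to 1700 CPM in the other fresh libraries. Rpl3 had 403 CPM in fresh replicate 1, against 234 to 275 CPM in the others. Rps4l had 2.67 CPM in fresh replicate 5, against 0.30 to 0.80 CPM in the others.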

How the results depend on the processing

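Cultured cells were compared with 2 fresh libraries of their own run. The shared numbers of the labels were not used to pair the libraries in the reported fit. Same-numbered cultured and fresh libraries, each centred on its group's mean, correlated at 0.042, -0.0048 and -0.011. The fresh mean mixes both runs and other library pairs were not compared, so these values cannot show whether libraries were paired. With the replicate block, which sets cultured against run-1 fresh libraries, 21 members were higher and 2 lower in culture. The number of members higher in culture was 3 in the reported fit, 8 without scaling factors, 8 with no run term, 33 against run-1 fresh libraries alone, 23 against these with similar copies added and 9 with copies added and no scaling. The number lower was 3 in the reported fit, 1 with no scaling factors, with or without copies, 1 with no filter, 10 by DESeq2, 30 with GC and length trends removed, 6 with named or similar copies added and 0 against a log2 fold change of 1, where 2 were higher. Without 1 library it was 3 to 4 higher and 1 to 3 lower, and with similar copies 2 to 4 higher and 1 to 8 lower. Between runs the 8 higher calls became 5 with no scaling factors or with named copies added, 4 against a log2 fold change of 1, 23 by DESeq2 (with 1 lower), 0 with similar copies, scaled or not, 0 to 11 without 1 library (0 without fresh replicate 5) and 0 to 4 without 1 library and with similar copies. The mean share of counts in cultured and fresh libraries became 2.98% and 2.52% without mitochondrial rows, 3.90% and 3.60% with named copies and 5.26% and 4.91% with similar copies. The cause of these shifts was not tested.

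Directions of single genes turned in the settings below, given as log2 fold changes. Only members named by the rules above are listed, and others turned as well. Of all 85 tested members, 26 had a positive log2 fold change in the reported fit and 71 against run-1 fresh libraries alone. Against run-1 fresh libraries alone: Rpl10 0.24, Rpl17 1.62, Rpl22l1 1.02, Rpl36a 0.73, Rpl39 1.79, Rpl5 1.41, Rpl7 0.25, Rplp0 1.15, Rps12 13.09, Rps20 1.61, Rps21 0.60, Rps23 1.97, Rps27 3.03, Rps27a 1.09, Rps3a3 6.05, Rps4l 1.27 and Rps6 0.28. With the replicate block: Rpl10 0.16, Rpl17 1.62, Rpl22l1 0.94, Rpl36a 0.71, Rpl39 1.74, Rpl5 1.39, Rpl7 0.17, Rplp0 1.08, Rps12 13.03, Rps20 1.55, Rps21 0.52, Rps23 1.91, Rps27 2.97, Rps27a 1.06, Rps3a3 6.35, Rps4l 0.53 and Rps6 0.24. The values of Rps12 there set counts against 0 and are no bound. With similar copies and run-1 fresh libraries alone: Rpl22l1 1.08, Rpl36a 0.060, Rpl39 0.47, Rpl5 0.20, Rpl7 0.18, Rplp0 1.01, Rps12 1.41, Rps20 1.61, Rps21 0.32, Rps23 0.0032, Rps27a 0.86 and Rps4l 1.28. With no run term: Rpl36a 0.33, Rpl39 0.51, Rpl5 0.41, Rpl7 0.037, Rplp0 0.55, Rps12 1.09, Rps20 0.70, Rps23 0.40, Rps27 0.37, Rps27a 0.32, Rps3a3 0.81 and Rps4l 0.48. With no scaling factors: Rpl10 0.20, Rpl3 0.29, Rpl36a 0.35, Rpl39 0.024, Rpl4 0.075, Rpl5 0.044, Rpl7 0.21, Rplp0 0.38, Rps12 0.16, Rps20 0.37, Rps27a 0.063 and Rps4l 0.18. With similar copies and no scaling factors: Rpl3 0.15, Rpl36a 0.081, Rpl39 0.0042, Rpl4 0.076, Rpl7 0.21, Rplp0 0.36, Rps12 0.10, Rps20 0.36 and Rps4l 0.18. With GC and length trends removed: Rpl11 -0.28, Rpl22 -0.53, Rplp1 -0.22, Rplp2 -0.23 and Rps20 0.029. With no filter: Rplp0 0.031 and Rps20 0.0067. Without 1 library, genes near 0 spanned it: Rpl22 -0.063 to 0.37, Rpl3 -0.23 to 0.0025, Rpl36a -0.25 to 0.11, Rplp0 -0.17 to 0.12, Rplp1 -0.059 to 0.36, Rps20 -0.054 to 0.046, Rps4l -1.16 to 1.32. Besides these, calls of named genes were lost in 29 and gained in 42 of the comparisons made. On their own rows Rps27l, Rpl7l1, Rps2 and Rps4x kept their calls under every setting listed here, except that Rps2 and Rps4x missed the stricter threshold of 1.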
